A study of Mus musculus with 6 samples.

Results

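The 33 glycolysis and hypoxia genes described here were chosen by symbol from the 32285 genes of the count tables, and each was found, with 1 of the 2 identifiers listed under Aldoa used. They were read as counts of unique molecular identifiers (UMIs), tags that mark single captured RNA molecules, over the 6 libraries of the study, separately in cells with myeloid, T-cell or epithelial marker genes. No measured value entered the choice of the genes, although earlier results of these data were known when it was made. Glycolysis splits glucose into pyruvate in the cytosol, and lactate dehydrogenase and the monocarboxylate transporters then turn pyruvate into lactate and carry it across the plasma membrane. Where oxygen is scarce, or in myeloid cells under inflammatory stimulation, the transcription factor HIF-1 escapes hydroxylation by the EGLN prolyl hydroxylases and degradation, and binds a short core motif in the promoters and enhancers of many of these genes. The colonic mucosa is known for low oxygen tension towards the lumen, and activated macrophages and T cells are known for high aerobic glycolysis.

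Single colon cells of transplanted mice were sequenced from droplets. The GVHD library held sorted donor CD11b+ CD64+ macrophages of mice given bone marrow plus spleen cells, a graft that causes graft-versus-host disease, and the BM library held the same sort from mice given bone marrow alone. A further pair of libraries held sorted donor macrophages, and another pair sorted donor T cells, of transplant recipients without interleukin-34 (labelled IL34KO, IL-34-/-) and of WT recipients. Every group was 1 library, with no strain, age, number of animals or batch named. The labels used here do not state the graft of the IL34KO and WT libraries.

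No group had a replicate, so no test was made, and every interval below is a 95% interval that covers counting error only. A cell was gated as myeloid, T or epithelial where at least 3 of 14 marker genes of that class were detected, and at least 2 times as many as of either other class. The libraries held 4169 to 18360 barcodes and 43660889 to 114425913 UMIs. The BM library shared 2502 of its 5874 barcodes with the GVHD library, against 5 to 75 shared barcodes for every other pair, and 2486 of the 2502 had more UMIs in the GVHD library. Those barcodes were left out of BM, and counts with them kept are given below. Myeloid markers were detected as labelled in the macrophage libraries, where myeloid-gated cells made up 87.2% (GVHD), 85.8% (BM), 75.3% (IL34KO) and 85.7% (WT) of the cells kept. In the libraries labelled T cells, myeloid-gated cells also outnumbered T-gated cells, with 56.3% against 20.6% of cells in IL34KO and 59.3% against 22.2% in WT. Il34, the gene targeted in the IL34KO recipients, stood at 5.31 CPM (counts per 1000000 UMIs of the gated cells; 4.32 to 6.46) in epithelial-gated cells of the IL34KO macrophage library against 3.70 CPM (2.67 to 4.98) in WT. In the T-cell libraries it stood at 4.15 CPM (2.89 to 5.77) in IL34KO and 3.15 CPM (2.19 to 4.38) in WT. Il34 was thus not lower in either library labelled IL34KO, and since no source used here gives the part of the gene that the allele removes, its UMIs do not check the label.

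The HIF core motif is ACGTG or GCGTG on either strand, and promoter windows were searched for both. RefSeq windows (GRCm38.p6) of 300 bases, from 250 before to 50 after a start site, were listed for 31 of the 33 genes. Of 45 windows of these genes, 38 (84.4%) held at least 1 core, against 14380 of 32851 windows (43.8%) of all genes. ACGTG, with or without GCGTG, was found in 57.8% of the windows of these genes and 19.6% of all windows. The E-box CACGTG, which contains ACGTG on both strands, was found in 13.3% of the windows of these genes and 7.15% of all windows. Many of these genes were listed because they are known HIF targets, so the motif share is a description of the list. The windows of the 4 single-window genes with the largest GVHD over BM ratio in myeloid-gated cells are shown with the window of the gene that was lower, each 5′ to 3′ in the direction of the gene, with core motifs in capitals. They are Slc16a3 (chr11:120948817-120949116, plus strand), Ankrd37 (chr8:45999801-46000100, minus strand), Pgam1 (chr19:41911621-41911920, plus strand), Pgk1 (chrX:106186850-106187149, plus strand) and Pfkfb3 (chr2:11502041-11502340, minus strand).
Slc16a3: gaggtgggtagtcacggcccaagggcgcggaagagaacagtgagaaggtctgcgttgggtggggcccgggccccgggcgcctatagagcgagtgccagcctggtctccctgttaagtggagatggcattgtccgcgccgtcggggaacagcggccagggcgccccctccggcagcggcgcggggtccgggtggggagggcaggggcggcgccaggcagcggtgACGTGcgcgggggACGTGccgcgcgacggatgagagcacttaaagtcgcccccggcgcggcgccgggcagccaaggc
Ankrd37: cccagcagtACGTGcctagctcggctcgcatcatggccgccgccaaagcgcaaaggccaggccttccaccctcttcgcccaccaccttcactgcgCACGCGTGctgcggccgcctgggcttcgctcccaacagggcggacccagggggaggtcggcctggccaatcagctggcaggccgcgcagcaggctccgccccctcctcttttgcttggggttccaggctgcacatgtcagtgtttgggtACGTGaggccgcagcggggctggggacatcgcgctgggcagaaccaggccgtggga
Pgam1: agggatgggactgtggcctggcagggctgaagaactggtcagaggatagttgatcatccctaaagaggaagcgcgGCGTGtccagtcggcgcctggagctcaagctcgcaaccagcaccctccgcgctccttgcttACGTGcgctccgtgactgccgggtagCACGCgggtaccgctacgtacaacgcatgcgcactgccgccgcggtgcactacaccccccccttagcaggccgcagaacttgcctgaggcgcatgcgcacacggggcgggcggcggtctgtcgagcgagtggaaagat
Pgk1: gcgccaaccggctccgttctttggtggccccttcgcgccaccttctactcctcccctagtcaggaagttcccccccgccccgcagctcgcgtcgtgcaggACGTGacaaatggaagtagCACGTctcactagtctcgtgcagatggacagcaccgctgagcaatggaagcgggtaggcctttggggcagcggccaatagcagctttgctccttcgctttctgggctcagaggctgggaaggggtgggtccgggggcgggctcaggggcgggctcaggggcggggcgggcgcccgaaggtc
Pfkfb3: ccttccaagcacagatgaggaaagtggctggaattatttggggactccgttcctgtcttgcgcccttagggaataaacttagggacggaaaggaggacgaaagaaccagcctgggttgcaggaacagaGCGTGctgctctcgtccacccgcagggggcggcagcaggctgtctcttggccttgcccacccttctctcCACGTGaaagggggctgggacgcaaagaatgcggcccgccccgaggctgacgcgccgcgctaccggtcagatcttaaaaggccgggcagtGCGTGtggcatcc
Slc16a3, encoding the lactate exporter MCT4, had 2 ACGTG cores at bases -27 and -14 from its start site, and Ankrd37, encoding a small ankyrin repeat protein, had 2 of each core with the nearest at base -6. The Pgk1 window held 2 ACGTG cores at bases -150 and -131. Pfkfb3, whose ratio went the other way, held 4 cores in the window shown, 2 of them the 2 strands of a single E-box, and 1 more in its other listed window. The core was thus found both with genes that were higher in GVHD and with the gene that was lower.

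The first comparison asked how macrophages of colons with graft-versus-host disease differ from those of mice given bone marrow alone. In myeloid-gated cells, 30 of the 33 genes reached 5 CPM in at least 1 of the libraries. Of these 30, 26 were at least 1.5-fold higher in GVHD than in BM, 1 was at least 1.5-fold lower and 3 lay between. Over all 9920 genes at that level, 15.1% were at least 1.5-fold higher and 19.4% at least 1.5-fold lower. The median log2 ratio of GVHD over BM was 1.26 for the 30 genes and -0.02 for all genes. The largest ratios were those of Ankrd37 (6.03-fold, 4.97 to 7.38), Slc16a3 (5.98-fold, 5.47 to 6.54), the lipid droplet gene Hilpda (3.76-fold, 3.66 to 3.85) and the glycolytic enzyme genes Pgam1 (3.59-fold, 3.46 to 3.72) and Pgk1 (3.45-fold, 3.32 to 3.58). With the shared barcodes kept in BM, 25 genes were higher and 1 lower, against 11.9% and 16.9% of all genes, with a median log2 ratio of 1.01. Library scaling left the counts at 26 and 1, against 22.0% and 14.7% of all genes with TMM and 22.9% and 14.1% with median-of-ratios factors. It moved the median of all genes to 0.15 with TMM factors and to 0.175 with median-of-ratios factors. Higher genes were then 59.9% and 61.9% of all genes called, against 43.7% with plain CPM, and the median of the 30 genes was 1.42 and 1.44.

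**Figure D1:**
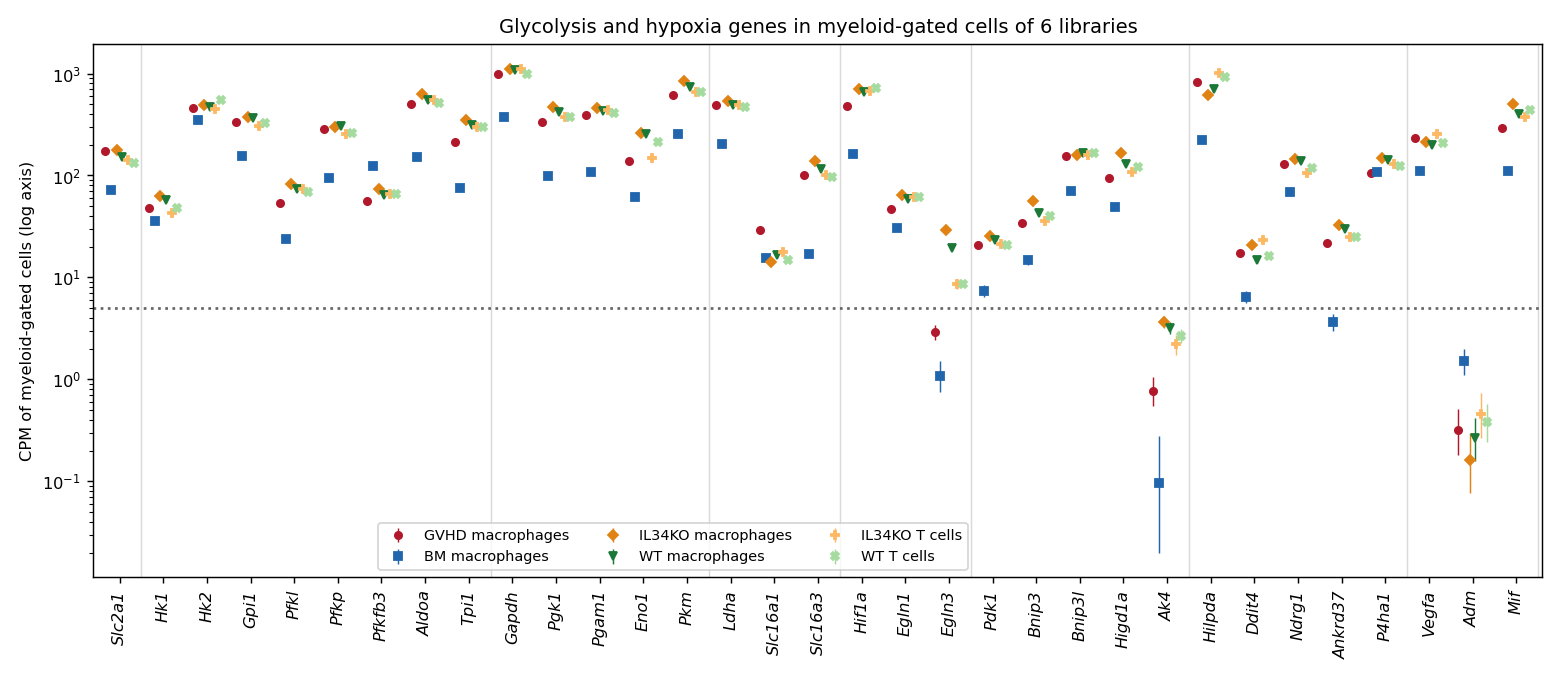
Level of each of the 33 genes in myeloid-gated cells of the 6 libraries, in CPM on a log axis, with 95% Poisson intervals; vertical lines part the roles from glucose uptake at the left to secreted products at the right, and the dotted line is the 5 CPM floor. The BM library (blue squares) is the lowest for most genes and the highest for Pfkfb3.

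Glucose enters macrophages through GLUT1, the product of Slc2a1. Slc2a1 stood at 173 CPM in GVHD and 71.3 CPM in BM, at 179 CPM in IL34KO and 152 CPM in WT of the macrophage libraries, and at 142 CPM in IL34KO and 133 CPM in WT of the T-cell libraries. The level in BM was below the other 5 libraries, which lay within 133 to 179 CPM, and GVHD over BM was 2.43-fold (2.32 to 2.55). Hexokinase traps glucose as glucose-6-phosphate. Hk2 had 458 CPM in GVHD and 353 CPM in BM, 487 CPM in IL34KO and 472 CPM in WT macrophages, and 452 CPM in IL34KO and 545 CPM in WT of the T-cell libraries. Hk1 stood at 47.5 CPM in GVHD and 36.1 CPM in BM, at 63.2 CPM in IL34KO and 57.3 CPM in WT of the macrophage libraries, and at 42.5 CPM in IL34KO and 47.9 CPM in WT of the T-cell libraries. Both hexokinase genes were lowest in BM, but by less than 1.5-fold against GVHD, at 1.30-fold (1.27 to 1.33) and 1.32-fold (1.23 to 1.41). Gpi1 encodes the isomerase that follows. Gpi1 had 332 CPM in GVHD and 156 CPM in BM, 373 CPM in IL34KO and 367 CPM in WT macrophages, and 303 CPM in IL34KO and 325 CPM in WT of the T-cell libraries. It was 2.14-fold (2.07 to 2.21) higher in GVHD than in BM.

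Phosphofructokinase-1 commits the sugar to glycolysis, and both of its subunit genes on the list were higher in GVHD. Pfkp stood at 285 CPM in GVHD and 93.4 CPM in BM, at 299 CPM in IL34KO and 309 CPM in WT of the macrophage libraries, and at 255 CPM in IL34KO and 263 CPM in WT of the T-cell libraries. Pfkl had 54.0 CPM in GVHD and 24.0 CPM in BM, 82.2 CPM in IL34KO and 73.7 CPM in WT macrophages, and 73.9 CPM in IL34KO and 68.5 CPM in WT of the T-cell libraries. Pfkp was 3.06-fold (2.94 to 3.18) and Pfkl 2.25-fold (2.08 to 2.44) higher in GVHD than in BM. Pfkfb3 makes fructose-2,6-bisphosphate, the activator of phosphofructokinase-1, and was the 1 gene of the list lower in GVHD. Pfkfb3 stood at 55.9 CPM in GVHD and 123 CPM in BM, at 74.5 CPM in IL34KO and 65.1 CPM in WT of the macrophage libraries, and at 65.3 CPM in IL34KO and 65.9 CPM in WT of the T-cell libraries. It was 2.21-fold lower in GVHD than in BM (2.10 to 2.32), and BM was the highest of the 6 libraries. Aldolase and triosephosphate isomerase come next. Aldoa had 498 CPM in GVHD and 153 CPM in BM, 637 CPM in IL34KO and 555 CPM in WT macrophages, and 554 CPM in IL34KO and 515 CPM in WT of the T-cell libraries. Tpi1 stood at 213 CPM in GVHD and 74.8 CPM in BM, at 346 CPM in IL34KO and 315 CPM in WT of the macrophage libraries, and at 296 CPM in IL34KO and 298 CPM in WT of the T-cell libraries. Their ratios of GVHD over BM were 3.25-fold (3.15 to 3.35) and 2.85-fold (2.72 to 2.98).

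All 5 genes of the lower steps of glycolysis, which yield ATP and NADH, were higher in GVHD. Gapdh had 996 CPM in GVHD and 375 CPM in BM, 1120 CPM in IL34KO and 1089 CPM in WT macrophages, and 1102 CPM in IL34KO and 993 CPM in WT of the T-cell libraries. Gapdh, often used as a loading control, was 2.66-fold (2.61 to 2.71) higher in GVHD, a ratio that stayed between 1.48 and 3.02 under all alternatives tried. Pgk1 stood at 338 CPM in GVHD and 98.1 CPM in BM, at 469.7 CPM in IL34KO and 421 CPM in WT of the macrophage libraries, and at 375 CPM in IL34KO and 377 CPM in WT of the T-cell libraries. Pgam1 had 391 CPM in GVHD and 109 CPM in BM, 456 CPM in IL34KO and 433 CPM in WT macrophages, and 444 CPM in IL34KO and 410 CPM in WT of the T-cell libraries. Phosphoglycerate kinase (Pgk1) makes the first ATP and phosphoglycerate mutase (Pgam1) shifts the phosphate for enolase. Eno1 stood at 140.1 CPM in GVHD and 61.3 CPM in BM, at 262 CPM in IL34KO and 257 CPM in WT of the macrophage libraries, and at 149 CPM in IL34KO and 211 CPM in WT of the T-cell libraries. Pkm had 610 CPM in GVHD and 254 CPM in BM, 844 CPM in IL34KO and 741 CPM in WT macrophages, and 654 CPM in IL34KO and 653 CPM in WT of the T-cell libraries. Enolase (Eno1) was 2.29-fold (2.17 to 2.41) and pyruvate kinase (Pkm) 2.41-fold (2.35 to 2.47) higher in GVHD. Eno1 has a near-identical copy, Eno1b, so reads may have been split between them.

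Ldha, the gene of lactate dehydrogenase A, and the 2 lactate transporter genes among the 33, Slc16a1 and Slc16a3, were higher as well. Ldha stood at 491 CPM in GVHD and 206 CPM in BM, at 533 CPM in IL34KO and 490.1 CPM in WT of the macrophage libraries, and at 490 CPM in IL34KO and 474 CPM in WT of the T-cell libraries. Slc16a3 had 102 CPM in GVHD and 17.1 CPM in BM, 140.3 CPM in IL34KO and 116 CPM in WT macrophages, and 101 CPM in IL34KO and 96.8 CPM in WT of the T-cell libraries. Slc16a1 stood at 28.9 CPM in GVHD and 15.5 CPM in BM, at 14.2 CPM in IL34KO and 16.5 CPM in WT of the macrophage libraries, and at 17.8 CPM in IL34KO and 14.9 CPM in WT of the T-cell libraries. Slc16a3 stood apart in BM, since each other library held at least 96.8 CPM, and was 5.98-fold (5.47 to 6.54) higher in GVHD than in BM. For Slc16a1 (MCT1), which carries lactate and other monocarboxylates both ways, GVHD was the highest and BM lay among the other 4 libraries. Ldha was 2.38-fold (2.32 to 2.45) and Slc16a1 1.86-fold (1.68 to 2.07) higher in GVHD than in BM.

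Hif1a encodes the oxygen-regulated subunit of HIF-1. Hif1a had 483 CPM in GVHD and 164 CPM in BM, 711 CPM in IL34KO and 665 CPM in WT macrophages, and 678 CPM in IL34KO and 714 CPM in WT of the T-cell libraries. Its GVHD over BM ratio was 2.94-fold (2.86 to 3.03). The prolyl hydroxylase genes Egln1 and Egln3 encode the enzymes that mark the HIF subunit for degradation and are themselves HIF targets. Egln1 stood at 47.4 CPM in GVHD and 30.7 CPM in BM, at 64.3 CPM in IL34KO and 59.1 CPM in WT of the macrophage libraries, and at 61.8 CPM in IL34KO and 61.4 CPM in WT of the T-cell libraries. Egln3 had 2.90 CPM in GVHD and 1.08 CPM in BM, 29.5 CPM in IL34KO and 19.6 CPM in WT macrophages, and 8.66 CPM in IL34KO and 8.71 CPM in WT of the T-cell libraries. Egln3 was under the 5 CPM floor in both GVHD and BM and at least 8.66 CPM elsewhere, with 29.5 CPM in IL34KO macrophages. Egln1 was 1.55-fold (1.43 to 1.67) higher in GVHD than in BM, the smallest ratio among the genes called higher.

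The mitochondrial members restrain or remodel respiration. Pdk1 stood at 20.7 CPM in GVHD and 7.39 CPM in BM, at 25.5 CPM in IL34KO and 23.0 CPM in WT of the macrophage libraries, and at 21.3 CPM in IL34KO and 20.6 CPM in WT of the T-cell libraries. Pdk1, a kinase that switches off pyruvate dehydrogenase, was 2.79-fold (2.42 to 3.24) higher in GVHD than in BM. Bnip3 and Bnip3l encode mitophagy receptors. Bnip3 had 34.4 CPM in GVHD and 14.7 CPM in BM, 55.8 CPM in IL34KO and 43.3 CPM in WT macrophages, and 35.4 CPM in IL34KO and 40.1 CPM in WT of the T-cell libraries. Bnip3l stood at 155 CPM in GVHD and 70.8 CPM in BM, at 161 CPM in IL34KO and 165 CPM in WT of the macrophage libraries, and at 159 CPM in IL34KO and 165 CPM in WT of the T-cell libraries. Higd1a encodes a small protein of the respiratory chain. Higd1a had 93.8 CPM in GVHD and 49.6 CPM in BM, 165 CPM in IL34KO and 130.2 CPM in WT macrophages, and 107 CPM in IL34KO and 122 CPM in WT of the T-cell libraries. These 3 genes were higher in GVHD by 2.34-fold (2.11 to 2.60), 2.19-fold (2.09 to 2.30) and 1.89-fold (1.79 to 2.01). Ak4, a mitochondrial adenylate kinase, was under the floor in every library, with 39 UMIs in GVHD and 3 UMIs in BM (ratio 8.10, 2.58 to 41.0).

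Hilpda encodes an inhibitor of lipolysis at lipid droplets. Hilpda stood at 833 CPM in GVHD and 222 CPM in BM, at 622 CPM in IL34KO and 706 CPM in WT of the macrophage libraries, and at 1018 CPM in IL34KO and 930.3 CPM in WT of the T-cell libraries. BM was lowest and GVHD stood between the IL34KO and WT macrophage libraries and the T-cell libraries. Ddit4 (REDD1) encodes an inhibitor of mTORC1. Ddit4 had 17.4 CPM in GVHD and 6.47 CPM in BM, 20.6 CPM in IL34KO and 14.8 CPM in WT macrophages, and 23.1 CPM in IL34KO and 16.1 CPM in WT of the T-cell libraries. Ndrg1 stood at 129 CPM in GVHD and 68.4 CPM in BM, at 146 CPM in IL34KO and 139 CPM in WT of the macrophage libraries, and at 106 CPM in IL34KO and 118 CPM in WT of the T-cell libraries. Ankrd37 had 21.9 CPM in GVHD and 3.63 CPM in BM, 32.5 CPM in IL34KO and 29.8 CPM in WT macrophages, and 24.7 CPM in IL34KO and 24.99 CPM in WT of the T-cell libraries. BM was again the lowest library for these 3 genes, and Ankrd37 was below the floor there alone. Ddit4 was 2.70-fold (2.31 to 3.16) and Ndrg1, a differentiation and stress gene, 1.89-fold (1.80 to 1.98) higher in GVHD than in BM. P4ha1 stood at 106 CPM in GVHD and 108 CPM in BM, at 148 CPM in IL34KO and 141 CPM in WT of the macrophage libraries, and at 130 CPM in IL34KO and 124 CPM in WT of the T-cell libraries. P4ha1, a collagen prolyl hydroxylase subunit, had a ratio of 0.978 (0.936 to 1.02) and lay between the thresholds.

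Of the secreted products, Vegfa is the angiogenic growth factor and Mif a cytokine that holds macrophages in place. Vegfa had 234 CPM in GVHD and 111 CPM in BM, 213 CPM in IL34KO and 198 CPM in WT macrophages, and 256 CPM in IL34KO and 207 CPM in WT of the T-cell libraries. Mif stood at 295 CPM in GVHD and 109.8 CPM in BM, at 505 CPM in IL34KO and 402 CPM in WT of the macrophage libraries, and at 375 CPM in IL34KO and 442 CPM in WT of the T-cell libraries. Vegfa was 2.11-fold (2.04 to 2.20) and Mif 2.68-fold (2.59 to 2.79) higher in GVHD than in BM. Adm, encoding the vasodilator adrenomedullin, was under the floor in every myeloid-gated sum, with 16 UMIs in GVHD and 47 in BM, 4.71-fold lower (2.63 to 8.91) in GVHD.

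Across the 6 libraries, 31 of the genes reached 5 CPM in myeloid-gated cells of at least 1. BM was the lowest library for 28 of the 31 (90.3%), against 32.6% of all 10188 genes at that level. It was the highest for 1 of the 31, Pfkfb3, against 40.8% of all genes, and lay between for Slc16a1 and P4ha1. All 5 other libraries share the comparison with the 1 BM library, so this order rests on that library.

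Isoform use of some families also differed, given here as shares of the UMIs of a family in myeloid-gated cells, with exact binomial intervals. Slc16a3 made up 73.3% (72.3 to 74.4) of UMIs of Slc16a1, Slc16a3 and Slc16a7 in GVHD and 28.9% (26.8 to 31.0) in BM, and 79.1% to 87.6% in the other 4 libraries. Slc16a7 (MCT2), a high-affinity lactate and pyruvate importer, made up 5.97% in GVHD and 45.0% in BM. Slc2a1 made up 98.1% of UMIs of Slc2a1 and Slc2a3 in GVHD and 89.5% in BM. Egln3 made up 3.66% of the 3 Egln genes in GVHD, 1.61% in BM, and 24.5% and 18.7% in the IL34KO and WT macrophage libraries. The hexokinase makeup was close in both libraries, with Hk2 at 75.5% in GVHD and 73.8% in BM, and so was that of lactate dehydrogenase, with Ldha at 97.3% in GVHD and 97.4% in BM.

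Neighbouring pathways were counted in myeloid-gated cells with the same thresholds. Of all 9920 genes, 15.1% were at least 1.5-fold higher in GVHD than in BM and 19.4% lower. Of 9 measured glycolysis isoforms outside the 33 genes, 3 were higher in GVHD and 2 lower, with a median log2 ratio of -0.14. Aldoc, an aldolase, was 4.81-fold (4.16 to 5.59) and Ldhb 2.48-fold (2.10 to 2.94) higher, as was Tigar, a fructose bisphosphatase, 2.03-fold, and the transporter genes Slc16a7 and Slc2a3 were 3.20-fold and 2.46-fold lower. Of 20 measured further HIF pathway genes and targets, 7 were higher and 1 lower, with a median log2 ratio of 0.02. Bhlhe40, a transcriptional repressor, was 3.88-fold, Pgm1 3.20-fold and the oxidoreductase gene Ero1l 2.69-fold higher, while Hmox1, heme oxygenase, was the gene lower, 3.38-fold. In the pentose phosphate pathway, which makes NADPH and ribose, 6 of 7 genes were higher and 0 lower (median log2 ratio 0.77), led by Tkt at 2.21-fold (2.14 to 2.29), Pgls at 2.04-fold and G6pdx at 1.75-fold. Of 24 measured genes of pyruvate entry and the TCA cycle, 13 were higher and 1 was lower (median log2 ratio 0.66). Mpc1, a mitochondrial pyruvate carrier subunit, was 2.66-fold, Mdh2 2.21-fold and Cs, citrate synthase, 1.98-fold higher, and Idh2 was 2.32-fold lower. Neither of the 2 measured gluconeogenesis genes passed. Aldoc, Ldhb, Tigar, Hmox1 and Idh2 were named after their values were seen.

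Other features of the myeloid-gated cells moved with this difference. The 8 mature macrophage markers summed to 10170 CPM in GVHD and 29380 CPM in BM, with 5596 to 15350 CPM in the other 4 libraries and none of the 8 at 0. The monocyte markers summed to 1468 CPM in GVHD and 598 CPM in BM, and the stress and dissociation genes to 5214 CPM in GVHD and 10160 CPM in BM. Cells with at least 2 UMIs of cycling genes made up 52.4% of GVHD and 23.5% of BM cells, and B and plasma cell markers summed to 2.86 CPM in GVHD and 120 CPM in BM. Ribosomal protein genes summed to 145600 CPM in GVHD and 97600 CPM in BM, fibroblast and stromal markers to 14.2 CPM in GVHD and 143 CPM in BM, and endothelial markers to 26.8 CPM in GVHD and 63.9 CPM in BM. Median UMIs per cell were 16844 in GVHD and 12498 in BM. Without cycling cells 26 genes were higher and 1 lower, against 17.5% and 20.9% of all genes. Without cells carrying B, plasma or stromal markers the counts were also 26 and 1, against 15.3% and 18.6% of all genes. Without mitochondrial and ribosomal genes in the total the counts were 26 and 1 too, against 18.6% and 17.1% of all genes. The part of the stress genes and of the endothelial markers in the result was not tested.

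The shift was then read within monocyte-gated and mature macrophage-gated cells, which were set apart by the markers detected in each cell. Mature macrophage-gated cells alone (1789 in GVHD, 2054 in BM) gave 26 genes higher and 1 lower, with a median log2 ratio of 1.28. Of all genes, 15.1% were higher and 19.8% lower in these cells. Monocyte-gated cells alone (227 in GVHD, 57 in BM) put 15 of 30 higher and 0 lower at a median log2 ratio of 0.61, against 17.8% and 18.3% of all genes. Slc16a3 differed in mature cells alone. In monocyte-gated cells it stood at 104 CPM (97.5 to 111) in GVHD and 102 CPM (81.0 to 126) in BM, while in mature macrophage-gated cells it stood at 99.96 CPM (96.6 to 103) in GVHD and 14 CPM (12.7 to 15.4) in BM. Its low level in the BM library was thus that of the mature macrophage-gated cells. Vegfa behaved alike, with 218 CPM in GVHD and 207 CPM in BM monocyte-gated cells and 237 CPM in GVHD and 107 CPM in BM mature cells. Hilpda differed in both, with 749 CPM in GVHD and 278 CPM in BM monocyte-gated cells and 869 CPM in GVHD and 220.4 CPM in BM mature cells. Of the genes past 1.5-fold in all myeloid-gated cells, Eno1 turned round, with 136 CPM in GVHD and 180 CPM in BM monocyte-gated cells (ratio 0.755), and so did Higd1a, with 90.9 CPM in GVHD and 102 CPM in BM (ratio 0.892). Hk1 and P4ha1, within 1.5-fold in all myeloid-gated cells (ratios 1.32 and 0.978), also lay on the other side of 1. Hk1 stood at 51.3 CPM in GVHD and 62.1 CPM in BM monocyte-gated cells and P4ha1 at 110 CPM in GVHD and 83.2 CPM in BM.

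**Figure D2:**
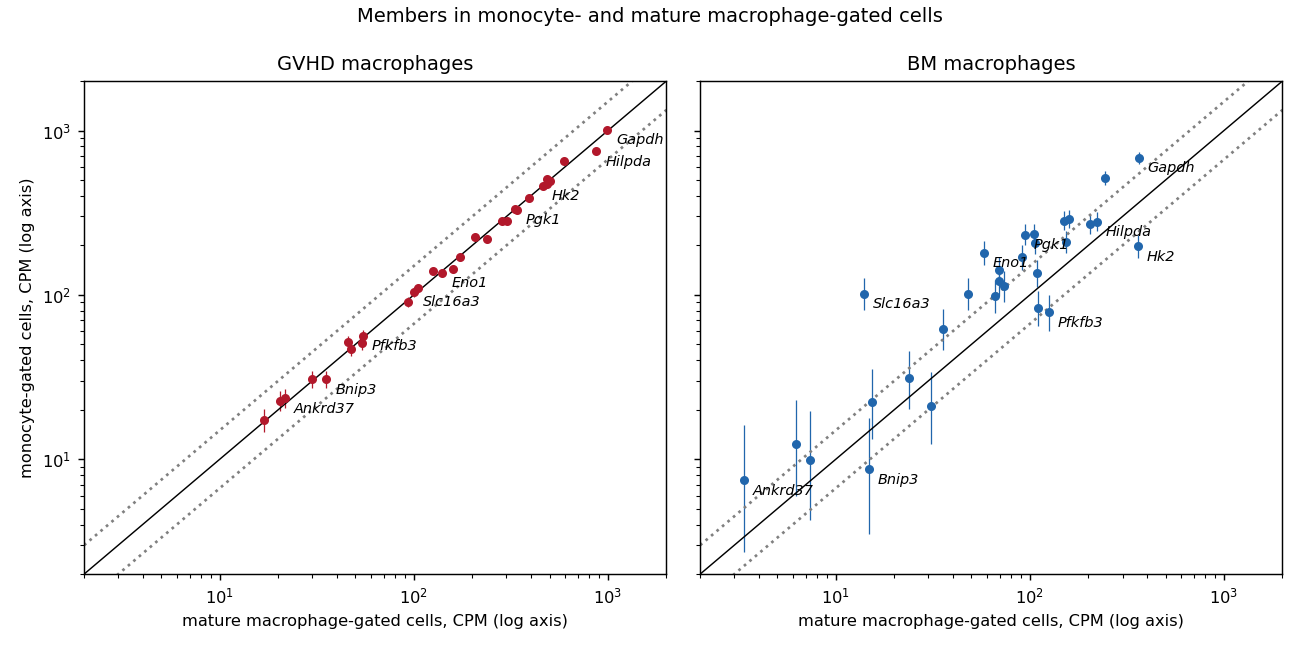
Each point is a gene, placed by its CPM in mature macrophage-gated cells (horizontal, log axis) and in monocyte-gated cells (vertical, log axis, with 95% Poisson intervals) of the GVHD library (left) and the BM library (right); the solid line marks equal levels and the dotted lines 1.5-fold. In GVHD every gene at the floor lies within 1.5-fold, while in BM 17 lie above that range and 3 below it.

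Set against mature macrophage-gated cells of the same library, monocyte-gated cells had 0 genes higher and 0 lower of 30 in GVHD, where 1.59% of all genes were higher and 1.83% lower. In BM, 17 of 30 were higher in monocyte-gated cells and 3 were lower, and the median log2 ratio was 0.81, against 21.4% and 23.0% of all genes. The 57 monocyte-gated cells of BM limit this comparison. In the IL34KO and WT macrophage libraries, 1 of 31 genes was higher in monocyte-gated cells and 0 were lower, against 3.15% and 6.63% of all genes in IL34KO and 4.16% and 7.35% in WT. The gene was Egln3, at 31.8 CPM against 19.3 CPM in mature cells of IL34KO and at 29.0 CPM against 11.99 CPM in WT. Neutrophil-gated cells of these libraries (1083 in IL34KO, 578 in WT) had 2 of 31 genes higher than mature cells and 0 lower in IL34KO, against 7.96% and 5.83% of all genes, and 1 higher and 0 lower in WT, against 7.44% and 4.13% of all genes.

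The difference between GVHD and BM was spread over cells. With every cell thinned to 2000 UMIs, 14 glycolytic enzyme genes gave a median of 9 UMIs per cell in GVHD (quartiles 6 and 12; 2279 cells) and 4 in BM (2 and 5; 2076 cells). Thinning left out 74 cells in GVHD and 109 in BM. The upper quartile of BM cells thus lay below the lower quartile of GVHD cells. A sum of 14 HIF targets gave a median of 3 UMIs in GVHD (2 and 5) and 1 in BM (0 and 2). In the other 4 libraries the glycolytic enzyme median was 9 to 11 UMIs in myeloid-gated cells.

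Myeloid cells were also grouped by UMIs of Nos2 and Arg1, the enzymes that use arginine for nitric oxide and for ornithine, after thinning to 2000 UMIs. A cell without a UMI at that depth may still express the gene. In GVHD, the glycolytic enzyme sum was 6477 CPM (6047 to 6930) in the 65 cells with both, 5798 CPM (5534 to 6072) in the 156 with Nos2 alone, 4994 CPM (4827 to 5165) in the 339 with Arg1 alone and 4505 CPM (4434 to 4576) in the 1719 with neither. In IL34KO the same groups gave 7806, 6719, 6597 and 5146 CPM, where the Nos2 and Arg1 groups had overlapping intervals (6616 to 6823 and 6379 to 6819). In WT they gave 7602, 6793, 5920 and 4948 CPM. The HIF target sum kept the same order in all 3 libraries, with 2700, 2276, 1996 and 1656 CPM in GVHD, 2699, 2287, 1879 and 1426 CPM in IL34KO and 2801, 2430, 2047 and 1469 CPM in WT.

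**Figure D3:**
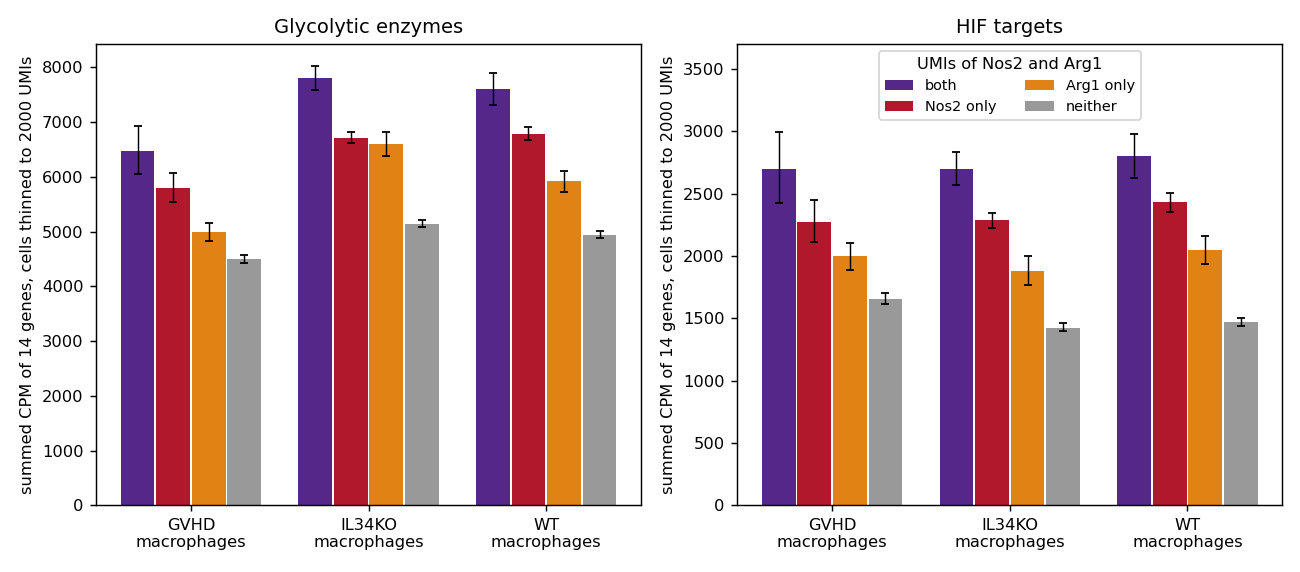
Summed CPM of 14 glycolytic enzyme genes (left) and of 14 HIF target genes (right) in myeloid-gated cells of 3 macrophage libraries, thinned to 2000 UMIs and grouped by UMIs of Nos2 and Arg1; bars start at 0 and error bars are 95% Poisson intervals. Cells with both are highest and cells with neither lowest in each library.

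Gene by gene, 30 of the 33 had at least 5 CPM in the cells with neither in all 3 libraries. Of these, 18 were lowest in the cells with neither in each of the 3, as were 2.65% of all 8580 genes at that level, Nos2 and Arg1 left out. In the cells with both, 11 of 30 were highest in each of the 3 libraries, against 3.54% of all genes. With Nos2 alone 13 of 30 were higher than with Arg1 alone in each of the 3, against 20.1% of all genes, and 0 of 30 were lower in each of the 3, against 17.4% of all genes. Hif1a was 1.59 to 1.66 times as high with Nos2 alone as with neither, and 1.04 to 1.16 times with Arg1 alone. P4ha1 was 1.54 to 1.94 times and Ndrg1 1.53 to 1.64 times as high with Nos2 alone as with Arg1 alone. Pfkfb3 was 1.41 to 1.74 times as high with Nos2 alone as with Arg1 alone. Hilpda and Vegfa differed little between those groups, with ratios of 0.962 to 1.07 and 1.04 to 1.13, and both were above their level in cells with neither in all 3 libraries. Which share of each group was monocyte-, macrophage- or neutrophil-gated was not tabulated.

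T-gated cells of the GVHD and BM libraries (199 in GVHD, 172 in BM) gave another picture. Of 31 measured genes, 7 were at least 1.5-fold higher in GVHD and 3 lower, against 21.8% higher and 17.6% lower of all 11077 genes, so the share of genes higher was near the background. Pfkfb3 stood at 106 CPM in GVHD and 48.2 CPM in BM, 2.20-fold (1.59 to 3.06) higher, opposite to its order in myeloid-gated cells. Hilpda stood at 192 CPM in GVHD and 484 CPM in BM, 2.52-fold lower (2.14 to 2.97), also opposite to the myeloid-gated cells. Pgam1 (1.77-fold, 1.25 to 2.52), Ndrg1 (2.09-fold, 1.41 to 3.14), Mif (1.58-fold, 1.31 to 1.90), Slc16a3 (2.92-fold, 1.06 to 9.28), Ddit4 (1.56-fold, 0.989 to 2.47) and Ankrd37 (1.60-fold, 0.673 to 3.88) were the other 6 genes higher in GVHD, the last 3 with 6 to 46 UMIs in a library and, for Ddit4 and Ankrd37, intervals that include 1. Egln3 was 3.59-fold lower, with 8 UMIs in GVHD and 36 in BM, and Vegfa 2.93-fold lower, with 6 UMIs in GVHD and 22 in BM. Beside this, B and plasma cell markers summed to 0.991 CPM in GVHD and 2929 CPM in BM T-gated cells. Without cells carrying B, plasma or stromal markers the counts were 6 higher and 3 lower, against 23.2% and 16.4% of all genes. Under TMM scaling 4 genes were higher and 3 lower, against 17.6% and 20.7% of all genes. Median-of-ratios scaling gave the same counts, against 16.6% and 21.6%. Higher genes were then 46.0% with TMM and 43.6% with median-of-ratios factors of all genes called, against 55.4% with plain CPM. The median log2 ratio of all genes was 0.11 with plain CPM and -0.03 with median-of-ratios factors.

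**Figure D4:**
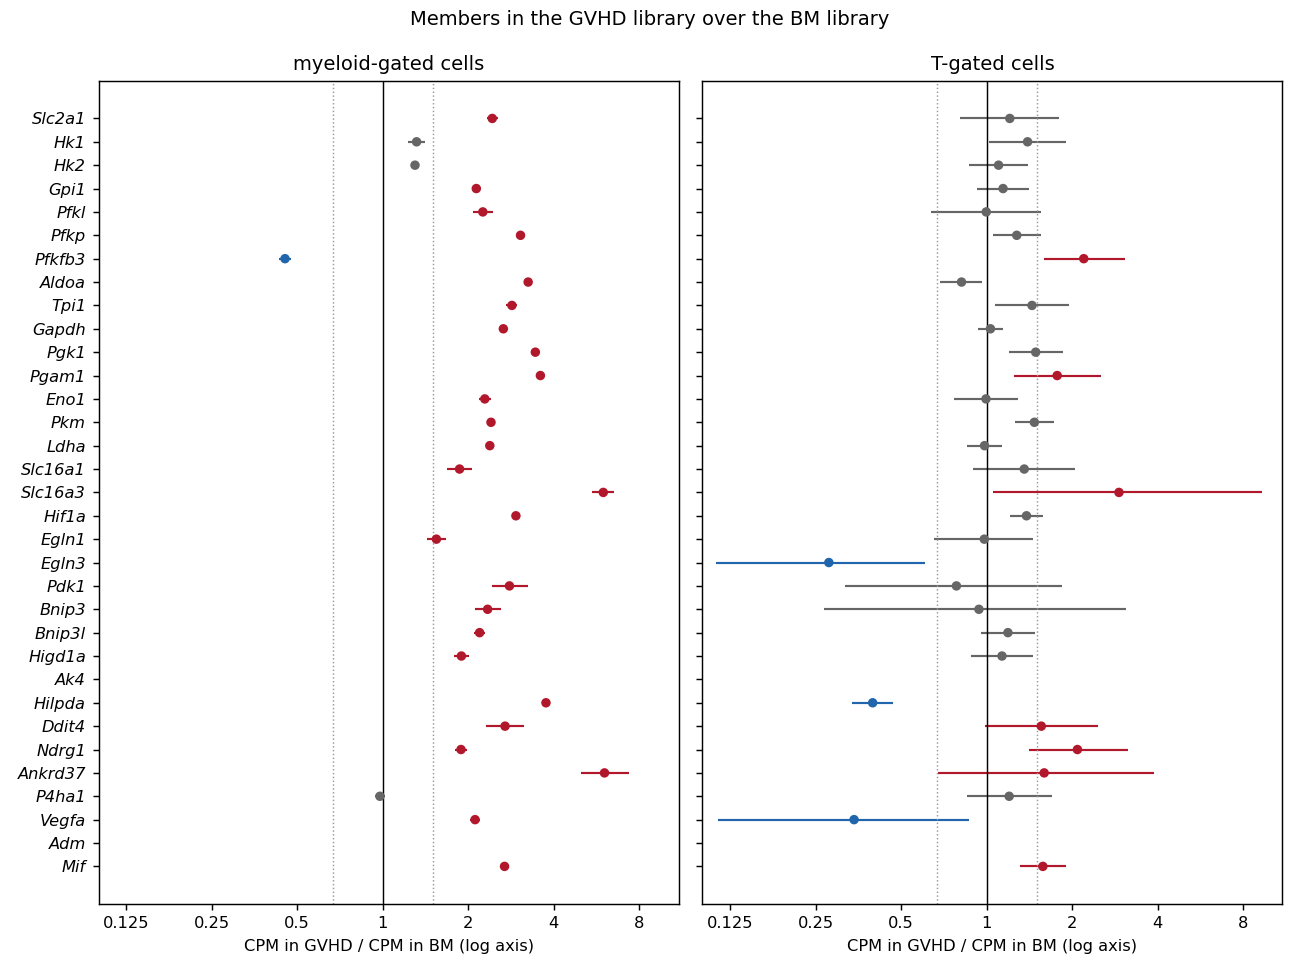
Ratio of CPM in the GVHD library over the BM library for each gene with at least 5 CPM in 1 of them, on a log axis, in myeloid-gated cells (left) and T-gated cells (right), with exact 95% conditional binomial intervals; red points are at least 1.5-fold higher, blue points at least 1.5-fold lower, and dotted lines mark 1.5-fold. In myeloid-gated cells 26 points are red and 1 is blue, and in T-gated cells 7 are red and 3 blue.

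The next comparisons asked how colonic cells of recipients without interleukin-34 differ from those of WT recipients. In myeloid-gated cells of the macrophage libraries, 1 of 31 measured genes was at least 1.5-fold higher in the library labelled IL34KO and 0 were lower, against 1.15% higher and 1.68% lower of all 9248 genes. The gene was Egln3, at 29.5 CPM in IL34KO and 19.6 CPM in WT, 1.502-fold (1.40 to 1.61). Neutrophil markers moved with it, with 5152 CPM in IL34KO and 2675 CPM in WT, and without neutrophil- and dendritic-gated cells the Egln3 ratio was 1.48 and no gene passed the threshold. In mature macrophage-gated cells alone Egln3 stood at 19.3 CPM in IL34KO and 11.99 CPM in WT, a ratio of 1.61, and was past the threshold. The ratio lay at the threshold and ran from 1.02 to 1.61 over the alternatives tried. The next highest ratios were those of Ddit4 (1.40-fold, 1.29 to 1.52), Bnip3 (1.29-fold, 1.23 to 1.36), Higd1a (1.27-fold, 1.23 to 1.30) and Mif (1.26-fold, 1.24 to 1.28). Slc2a1 gave a ratio of 1.18 (1.14 to 1.21), Hif1a 1.07 (1.06 to 1.08) and Gapdh 1.03 (1.02 to 1.04). The median log2 ratio of the 31 genes was 0.13, and that of all genes was 0.00. A ratio above 1 was found for 27 of the 31, and the share of all genes above 1 was not counted.

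In T-gated cells of the T-cell libraries, 1 of 29 measured genes was higher in the library labelled IL34KO and 0 were lower, against 2.25% and 1.62% of all 9819 genes. Ddit4 stood at 45.8 CPM in IL34KO and 26.4 CPM in WT, 1.74-fold (1.48 to 2.04), with 1766 cells in IL34KO and 3125 in WT. Without cycling cells no gene passed, against 3.24% higher and 2.59% lower of all genes. The Ddit4 ratio stayed at 1.42 or above under every alternative tried. Scaling moved the share of higher genes among all genes called, which was 58.2% with plain CPM and 41.9% with TMM factors. In myeloid-gated cells of the same libraries, 0 of 31 genes passed in either direction, against 0.955% higher and 0.445% lower of all 9213 genes, and Ddit4 stood at 23.1 CPM in IL34KO and 16.1 CPM in WT (1.44-fold, 1.31 to 1.58).

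Epithelial-gated cells gave 1 gene higher and 1 lower of 30 in the macrophage libraries (829 cells in IL34KO, 347 in WT), against 2.96% and 1.04% of all 10447 genes. Slc16a3 stood at 5.74 CPM in IL34KO and 3.52 CPM in WT, 1.63-fold (1.13 to 2.39), near the floor, and its ratio was 0.996 without cycling cells. Egln3 stood at 27.4 CPM in IL34KO and 44.3 CPM in WT, 1.61-fold lower (1.43 to 1.83), the opposite order to the myeloid-gated cells of the same libraries. In the T-cell libraries (805 cells in IL34KO, 874 in WT), 2 of 32 genes were higher and 0 lower, against 3.66% and 1.08% of all 10483 genes. These were Vegfa, at 31.5 CPM in IL34KO and 18.6 CPM in WT (1.69-fold, 1.41 to 2.04), and Ddit4, at 28.6 CPM in IL34KO and 18.3 CPM in WT (1.57-fold, 1.29 to 1.90). Vegfa and Ddit4 were level in the epithelial-gated cells of the macrophage libraries, at 26.0 CPM in IL34KO and 26.0 CPM in WT for Vegfa and 25.2 CPM in IL34KO and 26.0 CPM in WT for Ddit4. With TMM factors higher genes were 59.2% of all genes called in the macrophage libraries, against 73.9% with plain CPM, and 58.1% in the T-cell libraries, against 77.3%.

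Eno1 was under 1.5-fold in each comparison of IL34KO with WT. Its ratio of IL34KO over WT was nearly the same in all 3 gates of the T-cell libraries. It was 0.709 (0.687 to 0.732) in myeloid-gated, 0.719 (0.659 to 0.782) in T-gated and 0.723 (0.668 to 0.782) in epithelial-gated cells. In the macrophage libraries the Eno1 ratio was 1.02 (0.998 to 1.04) in myeloid-gated and 0.887 (0.834 to 0.943) in epithelial-gated cells.

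**Figure D5:**
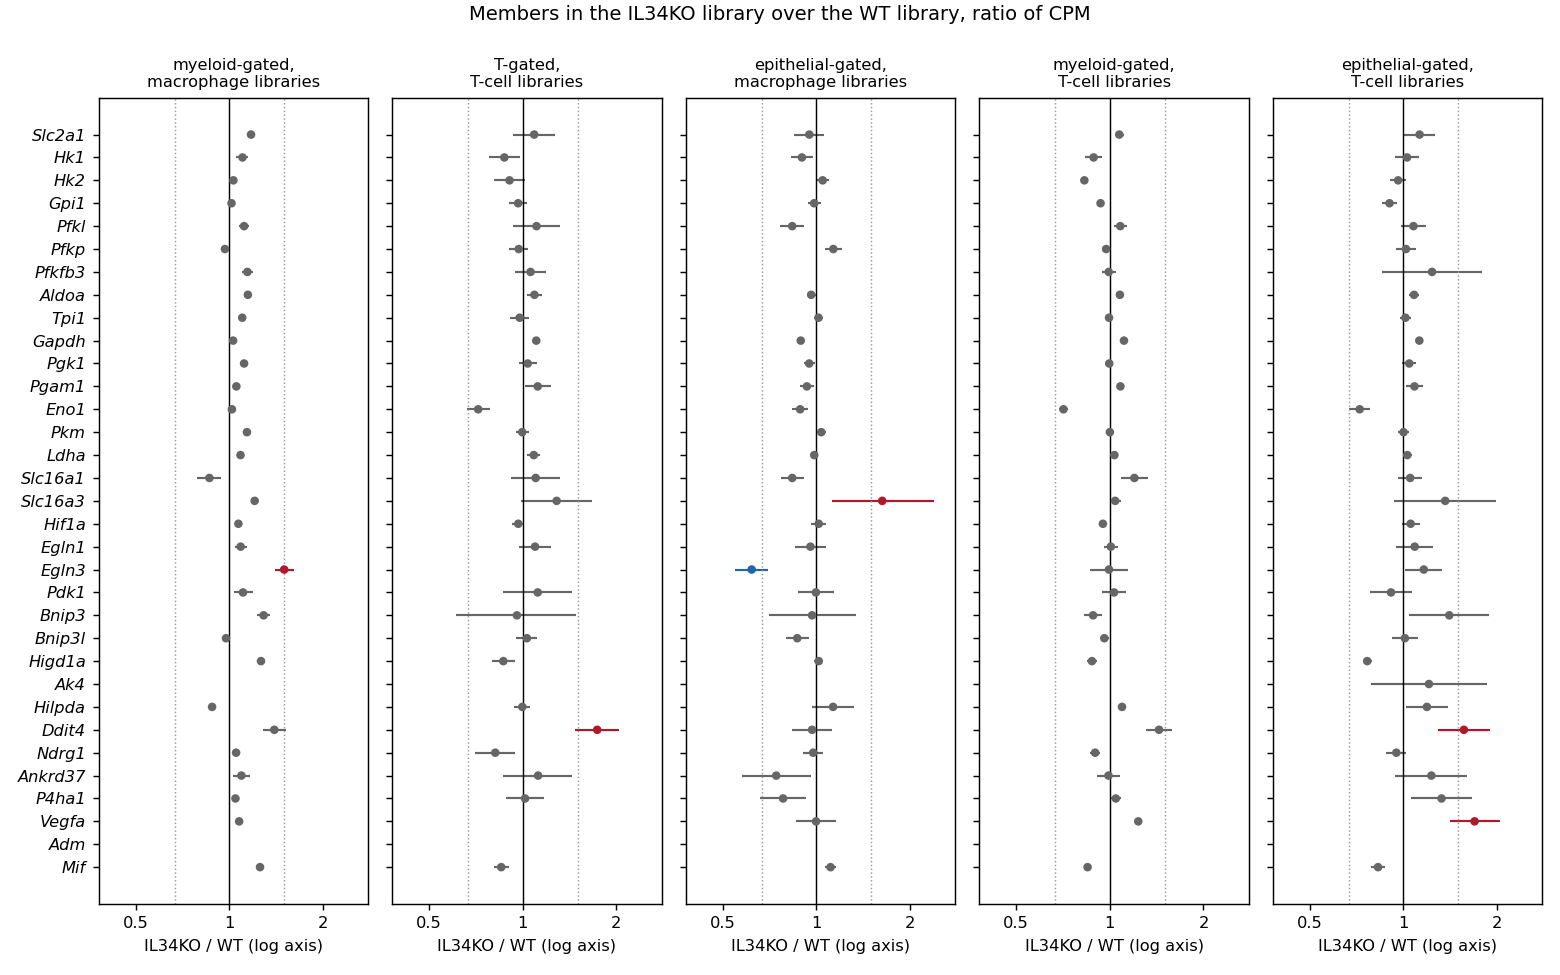
Ratio of CPM in the library labelled IL34KO over the WT library for each gene with at least 5 CPM in 1 of them, on a log axis, in 5 comparisons of gated cells; lines are exact 95% conditional binomial intervals, red points at least 1.5-fold higher, blue points at least 1.5-fold lower, and dotted lines mark 1.5-fold. Most points lie between the dotted lines.

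Cell types of 1 library were compared last, each gene with itself. Myeloid-gated cells were at least 1.5-fold above T-gated cells in 6 of 6 libraries for Vegfa (6.36-fold to 80.5-fold), Slc16a3 (3.61-fold to 13.01-fold), Bnip3 (2.32-fold to 18.6-fold), Hk2 (2.99-fold to 7.32-fold), Pgam1 (2.37-fold to 4.81-fold), Ndrg1, Slc2a1 and P4ha1. They were at least 1.5-fold below T-gated cells in 6 of 6 libraries for Slc16a1 (1.63-fold to 2.46-fold lower) and Ddit4 (1.54-fold to 4.52-fold lower). Low levels in T-gated cells may include free RNA, and in the WT T-cell library the myeloid markers summed to 806 CPM in T-gated and 25660 CPM in myeloid-gated cells, with Vegfa at 4.80 CPM in T-gated and 207 CPM in myeloid-gated cells. BM differed in several genes. Hilpda was 2.18-fold lower in its myeloid-gated than in its T-gated cells and higher in the other 5 libraries, by up to 4.33-fold. Aldoa had the same split, with 153 CPM in myeloid-gated and 277 CPM in T-gated cells of BM and at least 1.5-fold higher levels in the other 5. Further genes at least 1.5-fold lower in myeloid-gated than in T-gated cells of BM included Hif1a (2.015-fold), Bnip3l (1.97-fold), Eno1 (1.82-fold) and Ldha (1.79-fold). Gapdh (1.78-fold), Pfkp (1.78-fold) and Pfkl (1.62-fold) were also among them. The T-gated cells of BM held B and plasma cell markers at 2929 CPM and fibroblast and stromal markers at 1434 CPM. The part of such RNA in these ratios was not tested.

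Epithelial-gated cells, described in the 4 libraries with at least 50 of them, held more Higd1a and Slc16a1 than myeloid- and T-gated cells. Higd1a stood at 448 CPM in IL34KO and 440.4 CPM in WT of the macrophage libraries and at 604 CPM in IL34KO and 789 CPM in WT of the T-cell libraries, 2.72-fold to 6.45-fold above myeloid-gated cells. Slc16a1, the lactate and butyrate carrier of colonocytes, was 4.94-fold to 6.84-fold above myeloid-gated cells. Pfkfb3 was 9.17-fold to 21.6-fold lower in epithelial-gated than in myeloid-gated cells, Slc16a3 14.2-fold to 33-fold lower, Hilpda 24.7-fold to 31.7-fold lower, Vegfa 7.61-fold to 11.1-fold lower and Hif1a 3.58-fold to 4.08-fold lower, each in 4 of 4 libraries. Of the glycolytic enzyme genes, Aldoa, Gapdh, Ldha and Pfkl were within 1.5-fold of myeloid-gated cells in all 4. Pgam1 (2.11-fold to 2.52-fold lower), Pfkp (1.83-fold to 2.49-fold lower) and Hk2 (1.8-fold to 2.1-fold lower) were past 1.5-fold in 4 of 4. Eno1, Gpi1 and Pkm were at least 1.5-fold lower in 2 of 4 libraries and Pgk1 in 1. Hk1 was at least 1.5-fold higher in 3 of 4 and Tpi1 in 2. Family makeup differed likewise: Slc16a1 made up 88.7% to 94.0% of lactate transporter UMIs in epithelial-gated cells, and Pfkfb2, a bifunctional enzyme isoform, 54.1% to 60.0% of Pfkfb UMIs, where Pfkfb3 made up 63.6% to 74.9% in myeloid-gated cells.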

How the data were processed

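Transcripts of single colon cells were counted in 6 droplet libraries. The values are raw UMI counts per gene and barcode as deposited by the authors, made with Cell Ranger 7.0.1 on mm10 per the submitters' processing notes. Both a 5′ and a 3′ kit are named per the labels' protocols, without a library for each.

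Barcodes needed 500 detected genes and a mitochondrial UMI share of 10% or less, and were gated by marker counts. The gates stood in for doublet removal. Automatic Scrublet calls (scanpy 1.11.5) marked 5 or fewer barcodes in 5 of the libraries and 1297 in the WT T-cell library. The barcodes so marked were kept, and leaving out the highest doublet scores was an alternative. UMIs were summed per gate and library and scaled to 1000000 (CPM). A gene was measured at 5 CPM in 1 of the 2 libraries compared and called at 1.5-fold. Sums of 0 were set to 3 counts for a ratio. Poisson intervals are exact, and ratio intervals conditional binomial. Monocyte-, mature macrophage- and neutrophil-gated cells had at least 3 of 8 markers. Epithelial-gated cells were described from 50 cells a library. The steps were tested on simulated data.

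The members and lists were chosen with earlier results of these data known. Values in every library are given for genes past 1.5-fold in any comparison and for Hif1a, Gapdh and Slc2a1. From other lists up to 3 genes that differ the way the median of their list does are named, farthest first. Alternatives covered filters, gates, scaling (edgeR 4.0.16 TMM, median of ratios), floor, weights, thinning, cycling cells and doublet scores. Software was Python 3.11.15, scipy 1.17.1 and R 4.3.3.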

Additional observations from a re-analysis of the deposited data

Results flagged for a closer look

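For 9 genes the ratio of the library labelled IL34KO over WT in myeloid-gated cells lay on opposite sides of 1 in the macrophage libraries and in the T-cell libraries, with both intervals clear of 1. The share of all genes with such opposite ratios was not counted, so the 9 cannot be set against a background. The intervals cover counting error only, and ratios close to 1 can be clear of it. With 1 library per group the difference between the pairs was not tested, and none of these ratios reached 1.5-fold. Of the 9, 7 were higher in IL34KO in the macrophage libraries and lower in the T-cell libraries. Their ratios were 1.10 and 0.887 for Hk1, 1.03 and 0.828 for Hk2, 1.07 and 0.950 for Hif1a, and 1.29 and 0.883 for Bnip3, the macrophage libraries first. They were 1.27 and 0.876 for Higd1a, 1.05 and 0.897 for Ndrg1, and 1.26 and 0.848 for Mif. The other 2 went the opposite way, with 0.863 and 1.199 for Slc16a1 and 0.881 and 1.09 for Hilpda. Neutrophil markers summed to 5152 CPM in IL34KO and 2675 CPM in WT in the macrophage libraries and to 365 CPM in IL34KO and 449 CPM in WT in the T-cell libraries, and their part in these ratios was not tested.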

How the results depend on the processing

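Each count was recomputed under 14 to 18 alternatives, 1 of them (leaving out cells with B, plasma or stromal markers) added after seeing the data. For GVHD over BM in myeloid-gated cells, 33 of 36 recomputed counts stayed within 1.5 times the reported one. The exceptions were 2 genes lower without a floor (37.0% of all genes), and 15 higher and 0 lower in monocyte-gated cells alone (17.8% and 18.3%). In monocyte-gated cells Eno1 (0.755) and Higd1a (0.892) reversed among genes past 1.5-fold. The cause of these shifts was not tested. In T-gated cells 4 genes were higher with TMM factors (17.6% of all genes) and 4 with median-of-ratios factors (16.6%). There 6 of 31 were lower with cells weighted equally (21.1% of all genes) and 5 of 30 with cells thinned (25.03%).

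For IL34KO over WT in myeloid-gated cells of the macrophage libraries the 1 gene higher fell out, leaving 0, under the looser barcode filter, the looser gate, median-of-ratios factors, equal cell weights and without cycling cells, high doublet scores, B, plasma or stromal marker cells, or neutrophil- and dendritic-gated cells. In these settings 0.909% to 2.09% of all genes were higher. Without a floor 1 gene was lower, against 13.9% of all genes. In T-gated cells of the T-cell libraries 2 genes were higher without a floor (21.9% of all genes), 2 with equal weights (3.06%) and 2 thinned (5.66%). There 2 were lower thinned (3.93%), and 0 were higher without cycling cells (3.24%). In epithelial-gated cells of the macrophage libraries 0 were higher under either other barcode filter, either other gate, a floor of 20 CPM and without cycling cells, where Slc16a3 turned to 0.996. In these settings 1.29% to 6.96% of all genes were higher. With equal weights 2 of 31 were higher (6.92% of all genes) and 2 lower (4.99%). Thinned, 2 of 33 were higher (14.04% of all genes) and 2 lower (9.26%). Under the looser filter 2 of 30 were lower (0.909% of all genes). In myeloid-gated cells of the T-cell libraries 3 were higher in monocyte-gated cells alone, against 11.3% of all genes. In epithelial-gated cells there (3.66% of all genes higher as reported) 5 were higher under the stricter filter (6.91%) and 1 with the looser gate (2.87%). With TMM factors 1 was higher (2.26%), and with median-of-ratios factors 1 (2.28%). The median log2 ratio of all genes was 0.08 with plain CPM and -0.02 with TMM. With equal weights 6 were higher (9.17%), and thinned 6 were higher (12.9%) and 1 lower (9.41%).

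No paired analysis was possible because every group was 1 library, which also left no library to leave out. The small T- and monocyte-gated sums limit rare transcripts, and gates by marker counts can hold free RNA and doublets.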

Other observations

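Neutrophil-gated cells, present in number in the IL34KO and WT macrophage libraries (1083 and 578 cells), held Egln3 at 34.4 CPM (31.0 to 38.04) in IL34KO and 22.7 CPM (19.6 to 26.1) in WT. Mature macrophage-gated cells of the same libraries held 19.3 CPM (17.6 to 21.2) in IL34KO and 11.99 CPM (10.9 to 13.2) in WT. Slc16a3 stood at 182 CPM in neutrophil-gated cells of IL34KO and 132 CPM in those of WT.

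Sdhd, a subunit gene of succinate dehydrogenase and not one of the 33 genes, was 2.23-fold (2.12 to 2.34) higher in IL34KO than in WT in myeloid-gated, 2.20-fold (1.89 to 2.58) in T-gated and 2.27-fold (2.12 to 2.44) in epithelial-gated cells of the T-cell libraries. In the macrophage libraries, 0 of 24 genes of pyruvate entry and the TCA cycle in myeloid-gated cells and 0 of 26 in epithelial-gated cells were at least 1.5-fold higher or lower in IL34KO than in WT.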
